A study of Mus musculus with 10 samples.

Results

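The genes described here are the F-box genes and the ubiquitin-specific protease (Usp) genes that mouse embryonic stem cells of the J1 line expressed. Members were the names that start with Fbxl, Fbxo, Fbxw or Usp followed by a number, Fbxo15 left out, with a mean of at least 1 RPKM (reads scaled to transcript length and library size) over the 2 wild-type input columns. Of 131 such names 89 reached this limit, out of 11306 expressed genes and 30419 genes in all. They were 11 Fbxl, 25 Fbxo and 8 Fbxw genes, together 44 F-box genes, and 45 Usp genes. The name alone took in Usp6nl, which encodes a GTPase-activating protein, and Usp39, a splicing factor that lacks protease activity. Usp20 and Usp51 at 1.00 RPKM, Fbxl16 at 1.10 and Fbxl2 at 1.14 lay just inside the limit. Fbxl15 at 0.978, Usp27x at 0.896, Usp35 at 0.777 and Fbxo36 at 0.751 lay just outside it.

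Fragmented total RNA was precipitated with an antibody against N6-methyladenosine (m6A), and each precipitated library (IP) was paired with an input library of RNA that had not been precipitated. The groups were 2 pairs from cells whose genotype is labelled mettl3 KO, 2 pairs labelled mettl3 WT and a first pair with no stated genotype. All were feeder-free J1 cultures, and neither the altered part of Mettl3, the number of clones nor separate cultures for the replicates are stated in the labels. The p-values below therefore rest on the spread between libraries that may be technical repeats.

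F-box proteins are the substrate-binding subunits of SCF ubiquitin ligases, in which SKP1 links them to the cullin CUL1. Fbxl proteins bind substrates through leucine-rich repeats, Fbxw proteins through WD40 repeats, and Fbxo proteins through other or unknown domains. Usp proteins are cysteine proteases that remove ubiquitin, so both families set how long many regulators of the cell cycle, the clock and signalling persist. Mettl3 is the catalytic subunit of the enzyme that methylates adenosines of messenger RNA, often in long internal exons and in the last exon, and m6A is known to shorten the life of many transcripts in embryonic stem cells.

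The IP libraries were shallow and unequally deep. Relative to the first IP, depth was 0.0644 and 0.0606 in the KO IPs and 0.159 and 0.0712 in the WT IPs, and relative to the first input it was 0.516 and 0.284 in the KO inputs and 0.438 and 0.457 in the WT inputs. Over the exon windows of the 89 genes, 55.8 and 45.4% had no IP signal in KO, against 16.5 and 43.4% in WT. Mettl3 transcript was still present in KO, with a mean input coverage of 3.14 and 3.38 in KO against 4.79 and 4.67 in WT (log2 change −0.43, SE 0.072, limma adjusted p = 0.00259, n = 2 per group). All 12 stem cell markers looked at were expressed, with summed coverage of 2384 and 2236 in KO and 2913 and 3003 in WT. In KO 1 of them (8.33%) was higher and 5 (41.7%) were lower, beside 13 and 13.6% of all genes tested. Their median log2 change was −0.20. Of 7 endoderm, 6 mesoderm, 7 fibroblast and 4 trophectoderm markers, 0, 1, 1 and 1 were expressed, and the summed coverage of each list was between 1.06 and 2.85 in every KO and WT library. Only Lum, a fibroblast marker, was at 0 in all 4. Of 6 neural markers 3 were expressed, with summed coverage of 25.4 and 26.0 in KO and 22.9 and 23.6 in WT, and Nes rose (log2 change 1.13, adjusted p = 5.22e-05) while Sox1 fell (−0.55, adjusted p = 0.0034). Whether these markers or the unequal depth had a part in the results below was not tested.

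In WT inputs the 89 genes spanned 1.00 to 53.7 RPKM with a median of 6.52, beside 6.60 for all expressed genes. The median was 8.10 RPKM for Usp, 6.45 for Fbxw, 6.42 for Fbxo and 3.52 for Fbxl genes. The highest was Usp7, the deubiquitinase of p53 and its ligase MDM2, with 53.6 and 53.8 RPKM. Fbxo5, which encodes the inhibitor EMI1 of the anaphase-promoting complex, had 43.1 and 46.4 RPKM. Usp9x followed with 38.6 and 37.0 RPKM, Usp14, a deubiquitinase of the proteasome, with 34.3 and 35.9, and Usp48 with 32.0 and 32.4. The 2 WT values of these 5 genes did not overlap between neighbours in this order.

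Most F-box and Usp genes carried m6A enrichment in the first IP, which belongs to neither group compared. A region was a run of at least 2 consecutive windows with a winscore of at least 2, where the authors' winscore is the log2 of IP over input in a window, each divided by its median over the gene. The 89 genes held 127 regions, and 70 of the 89 had at least 1 (78.7%, 95% exact binomial interval 68.7 to 86.6%, for counting error only), beside 54.3% of all expressed genes. They were also longer, with a median of 83 windows against 58. Among genes inside the middle range of the members' lengths, 38 of 45 members (84.4%) and 66.9% of 4012 genes had a region. There were 39 of 45 Usp, 9 of 11 Fbxl, 6 of 8 Fbxw and 16 of 25 Fbxo genes with a region. At a winscore of 1 or 3 the share was 95.5 and 59.6%, beside 79.3 and 35.9% of all expressed genes. With 1 library this map has no replicate, and the shares carry no test.

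A single region was found in 34 of the 89 genes, while 21 genes held 2, 9 held 3 and 6 held 4. The genes with 4 were Usp34, which acts on axin in Wnt signalling, the nucleolar deubiquitinase Usp36, and Usp42, Usp53, Usp54 and Fbxo30. Those with 3 were Usp24, Usp38, Usp44, Usp47, Usp48, Usp6nl, Fbxl19, Fbxo38 and Fbxo42. The 19 genes without a region had a median of 46 windows, against 90 in the 70 genes with one, yet they included Usp7 with 125 windows and Usp22, the H2B deubiquitinase of the SAGA complex, with 95.

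Most regions lay in last exons or in long internal exons. For the 67 members whose strand the RefSeq table gave, 57 of 96 regions (59.4%) fell in the 3' exon, 2 of them in genes of a single exon, beside 68.5% of all regions, and this exon held 41.3% of the members' windows and 44.5% of all windows. Another 5 of the 96 regions lay in the 5' exon and 34 in internal exons, 33 of these 34 in exons of at least 9 windows, a length chosen for this description. Such exons were rare, 39 of 922 internal exons of these genes, and 26 of the 39 (66.7%) held a region, against 1 of the 883 shorter ones (0.113%). Over all expressed genes these shares were 57.9% of 2316 long and 0.295% of 77702 shorter internal exons. The median internal exon had 3 windows, in the members as in all genes, which leaves few places for a run of at least 2. These shares are per exon and were not scaled by length. The difference between members and all genes was not tested. A run that crossed an exon border was placed in the exon that held most of it.

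Usp10, a cytoplasmic deubiquitinase of p53, had the highest region of the first IP (winscore 4.81), 14 windows long in exon 4 of 14, counted from the 5' end. This region had a winscore of 3.83 and 3.99 in KO and 4.22 and 4.23 in WT. The KO values lay a little below the WT values, by −0.31 (SE 0.53, limma adjusted p = 0.895). Its second region, 3 windows in the last exon, had 0.985 and 0.555 in KO and 2.39 and 2.54 in WT, so that both KO values were lower there, a difference that did not pass either. In Usp47, a deubiquitinase of base excision repair, exon 21 of 29 had 7.35 and 5.71 in KO and 5.59 and 6.90 in WT. Exon 15 of the 80 exons of Usp34 had 6.94 and 6.92 in KO and 5.93 and 6.72 in WT. Both exons had a higher mean in KO, and in Usp47 the groups overlapped.

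Fbxw7, the F-box protein for cyclin E, MYC and Notch, carried both kinds of region. Its exon 5 of 16 had a winscore of 5.12 and 4.56 in KO and 4.05 and 4.45 in WT, and its last exon had 6.19 and 5.40 in KO and 5.40 and 5.07 in WT. Fbxo11, the F-box protein for BCL6, had 6.50 and 7.13 in KO and 5.86 and 6.76 in WT in its last exon. In the mouse annotation Fbxo11 overlaps Msh6 and Usp34 overlaps Ahsa2. Whether their regions lie in the shared parts was not tested. The groups overlapped in Fbxo11, while in exon 5 of Fbxw7 both KO values were higher. The median IP coverage of Fbxw7, by which winscore divides, was 1.32 and 2.97 in KO and 4.51 and 5.99 in WT. Its part in this difference was not tested. Fbxl5, the iron-sensing F-box protein for the iron regulatory protein IRP2, had 5.92 and 5.73 in KO and 4.91 and 6.02 in WT. Usp1, the deubiquitinase of FANCD2 and PCNA, had 5.77 and 5.73 in KO and 5.15 and 5.48 in WT in the longer of its 2 regions. All 8 members with the highest regions in the first IP, Fbxo45 among them, kept these regions above a winscore of 3 in both KO libraries. At a winscore of 2 or more, 74.9% of all regions stood in both KO libraries. The share above 3 among all regions of like height was not computed, so this marks no trait of these genes.

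**Figure D1:**
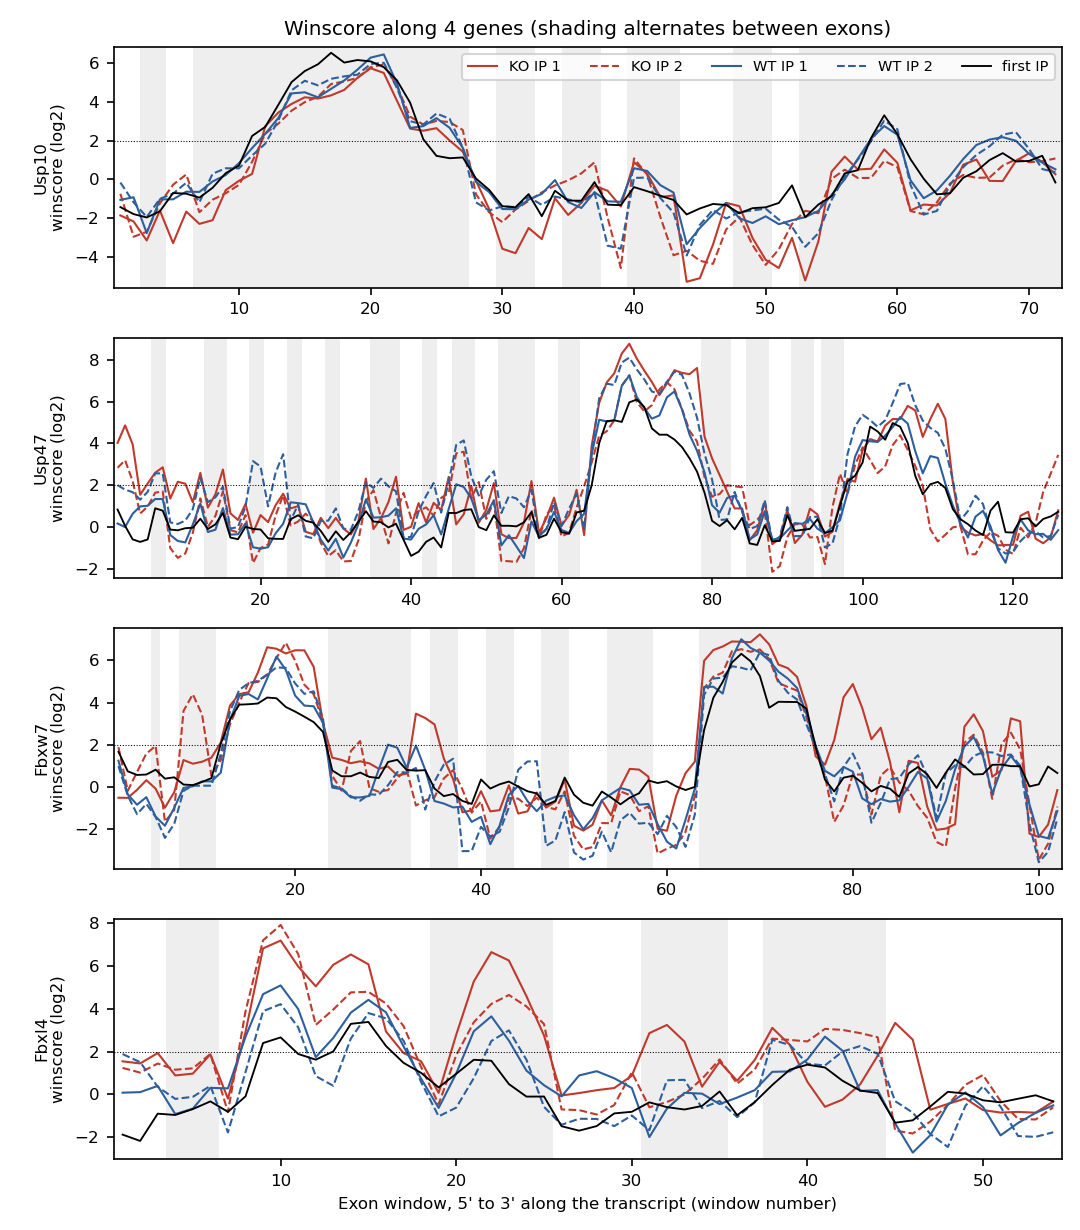
Winscore (log2) of each exon window along Usp10, Usp47, Fbxw7 and Fbxl4, by window number in the 5' to 3' direction, for the KO IPs (red), the WT IPs (blue) and the first IP (black), with exons in alternating shade and the winscore limit of 2 dotted. The highest window of each KO and WT IP is window 69 in Usp47, window 10 in Fbxl4, where both KO lines are above both WT lines, and window 20 or 21 in Usp10. In Fbxw7 it is window 19 in exon 5 in KO IP 2 and window 68 or 70 in the last exon in the other KO IP and both WT IPs.

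Over the whole transcript, IP coverage relative to input ranked the genes alike in KO and WT. This gene value was log2((IP + 1)/(input + 1)) minus the library's median over expressed genes, so that 0 is the typical expressed gene. The members' median was 0.43 and 0.48 in KO and 0.56 and 0.61 in WT. Usp1 was highest with 3.13 and 3.21 in KO and 2.92 and 2.81 in WT. Usp53 had 2.86 and 2.65 in KO and 2.78 and 2.66 in WT, and Fbxw7 had 2.87 and 2.80 in KO and 2.56 and 2.79 in WT. Both KO values were above both WT values in Usp1 and Fbxw7 and overlapped them in Usp53. Each library is centred on its own median, so a change shared by most genes would not show in this value. Of the 10 highest genes by the KO mean, 9 were among the 10 highest by the WT mean.

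At the low end, Usp7 had −1.47 and −1.60 in KO and −1.75 and −1.99 in WT. Fbxw9 had −1.04 and −1.26 in KO and −1.63 and −1.91 in WT, and Fbxo9 had −1.70 and −1.35 in KO and −1.44 and −1.82 in WT. Both KO values were above both WT values in Usp7 and Fbxw9 and overlapped them in Fbxo9, and none of the 3 had a region. Fbxo5 shows how the measures differ: its gene value was 2.61 and 2.51 in KO and 2.66 and 2.60 in WT, but its 2 regions stood at winscores of only 1.85 to 2.65 in KO and 2.29 to 2.83 in WT. Winscore divides by the gene's own median, and the median IP coverage of Fbxo5 was 117 and 107 in KO and 108 and 108 in WT, against 8.53 and 8.67 in KO and 14.6 and 11.8 in WT for Usp1.

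**Figure D2:**
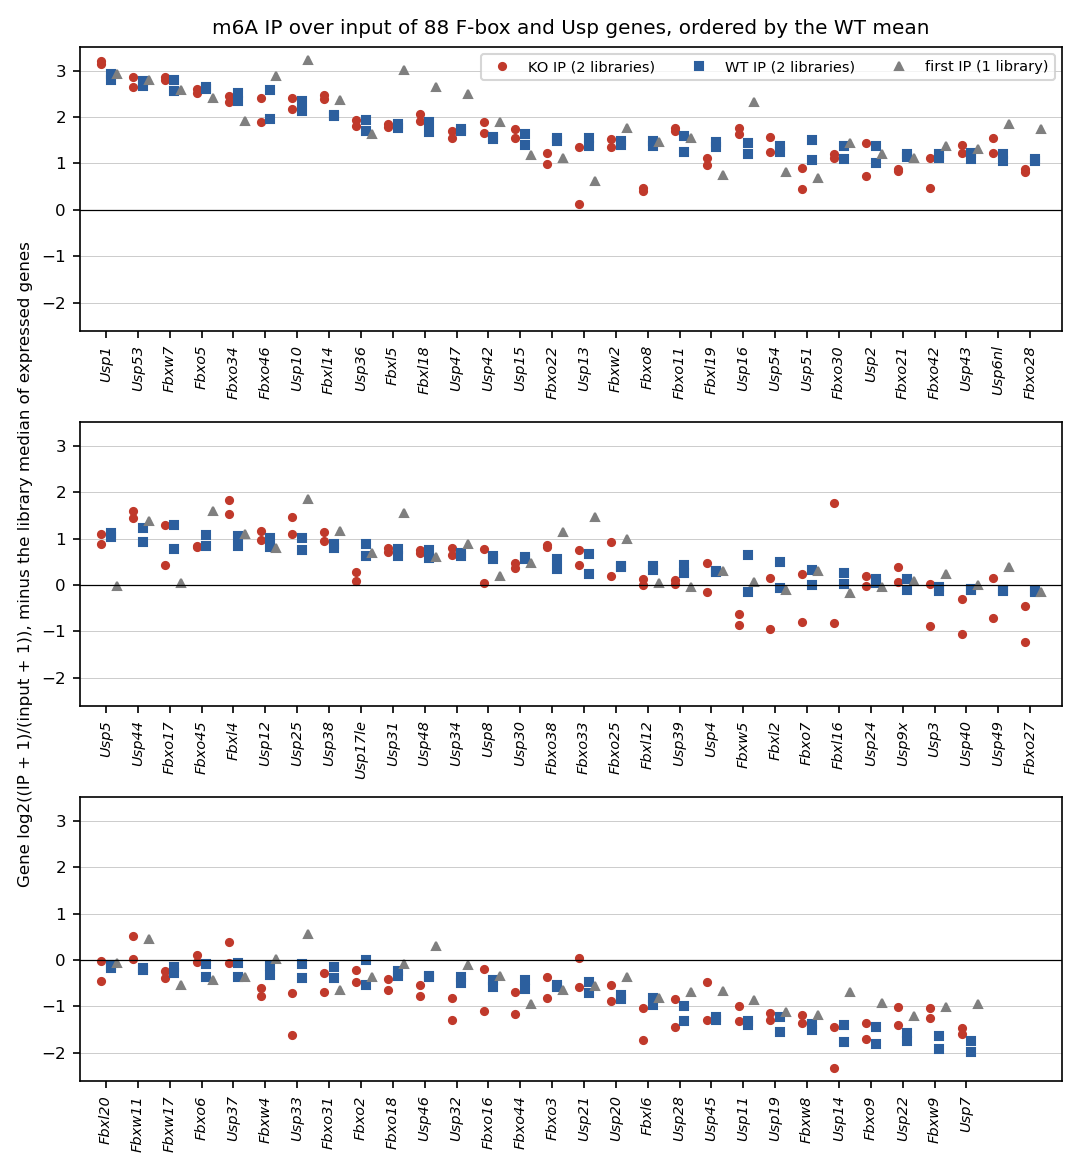
Gene log2((IP + 1)/(input + 1)) minus the library median over expressed genes, for 88 of the 89 genes ordered by the WT mean, with 2 KO IPs (circles), 2 WT IPs (squares) and the first IP (triangles). Usp1 is highest and Usp7 lowest by the WT mean.

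The largest gene differences on this scale were negative in Fbxo8, Fbxw5 and Usp33 and positive in Fbxl4 and Fbxw9. Fbxo8, whose protein also has a domain that acts on ARF GTPases, had 0.40 and 0.48 in KO and 1.38 and 1.49 in WT. Fbxw5 had −0.86 and −0.63 in KO and −0.15 and 0.64 in WT. Both groups stood apart in both genes. Fbxl4, a mitochondrial protein, had 1.83 and 1.52 in KO and 1.06 and 0.83 in WT, the highest difference of the 89 (0.72). In 20 genes (22.5%) both KO values were above both WT values and in 23 (25.8%) below, beside 25.8% above and 20.7% below among all expressed genes, so the members' shares lay near those of all genes. The median difference was −0.0069 in the members and 0.034 in all expressed genes. These gene values carry no test.

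Most member regions were still enriched in KO. Both KO IPs stood at a winscore of 2 or more in 94 of 127 regions (74.0%), beside 74.9% of all regions, and both WT IPs in 118 (92.9%), beside 87% of all. Of these 118, 92 (78.0%) were at 2 or more in both KO IPs, beside 82% of all. By family, both KO IPs held 59 of 73 Usp, 19 of 29 Fbxo, 10 of 16 Fbxl and 6 of 9 Fbxw regions. Both WT IPs held 70, 26, 14 and 8 of them. The gene's median IP coverage, which enters the winscore, was 0 for 49.6 and 25.2% of the member regions in KO and 0.787 and 29.9% in WT. Its part in the winscores was not tested.

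The share of regions with a lower mean in KO depended on the measure, as it did over all regions. In winscore 66 of 127 member regions (52.0%) had a lower mean in KO, beside 54.3% of all, with a median difference of −0.0099 (all regions −0.079). In the log2 ratio of IP to input, centred on windows outside regions and without division by the gene median, 94 of 125 regions (75.2%) had a lower mean in KO, beside 77.8% of all. The median difference there was −0.45 in the members and −0.45 in all regions. The members' regions and all regions thus had near the same shares. With the highest window of each region in place of the mean, 44.9% of member regions were lower in winscore, beside 44.9% of all. Leaving out 1 library moved the share by the mean both ways, in the members as in all regions. It was 60.6% without KO replicate 1 and 44.9% without KO replicate 2, beside 57.7 and 49.4% of all. It was 66.1% without WT replicate 1 and 37.0% without WT replicate 2, beside 61.5 and 45.5% of all. Among the 78 member regions found at a winscore limit of 3 it was 33.3%, beside 50.4% of all.

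**Figure D3:**
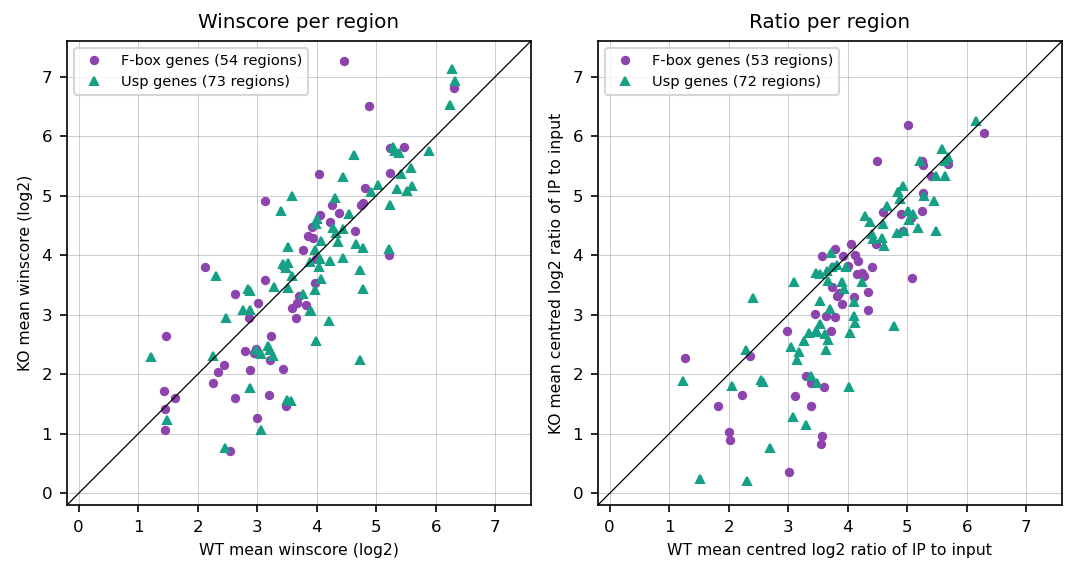
Mean of the 2 KO IPs (vertical axis) against the mean of the 2 WT IPs (horizontal axis) for each region of the F-box and Usp genes, in winscore (left, 127 regions) and in the centred log2 ratio of IP to input (right, 125 regions), with the line of equal values. Points lie on both sides of the line in winscore, and 94 of 125 lie below it in the ratio.

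No single region of these genes was called in KO against WT, by tests of little power. On simulated data with the spread of these libraries the winscore test recovered no planted change and the ratio test few, so a lack of calls does not show that KO and WT regions were alike. The limma test called 0 of 127 member regions in winscore and 0 of 125 in the ratio at an adjusted p of 0.05, and 0 of all 10181 and 9603 regions. At an unadjusted p under 0.05 there were 5 higher and 6 lower member regions in winscore, and 2 higher and 15 lower in the ratio. Over all regions these were 325 higher and 517 lower in winscore and 133 higher and 1468 lower in the ratio. At an adjusted p of 0.05, the lack of calls held without either WT replicate but not without either KO replicate. This was so in the member regions and in all regions.

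The regions below had the smallest p values and did not pass. In Fbxl4, exon 3 of 9 held 2 regions. The stronger had a winscore of 6.99 and 7.54 in KO and 4.88 and 4.04 in WT, and 2.53 in the first IP. Both KO values were higher, by 2.80 on average (SE 0.61, adjusted p = 0.517), and the ratio of this region was higher by 1.17. The gene's median IP coverage was 0 and 0.214 in KO and 1.85 and 1.93 in WT. The weaker region had 5.39 and 4.43 in KO and 3.67 and 2.59 in WT. In the main region of Fbxo45, which works with the ligase MYCBP2 in neurons, the winscore was higher by 1.62 but the ratio was lower (−0.22), and the gene's median IP coverage was 0 and 0 in KO and 3.99 and 2.39 in WT. A region in exon 3 of Fbxl18 had 4.29 and 3.32 in KO and 1.94 and 2.30 in WT, and its ratio was higher by 1.10. In the ratio Usp5, which takes apart free ubiquitin chains, was higher by 0.86 and Usp44, a deubiquitinase of the spindle checkpoint, by 0.38. The value of Usp44 was 0.16 without KO replicate 1 and 0.60 without KO replicate 2, and that of Fbxl4 was 0.76 without KO replicate 2. Usp44 overlaps Metap2 in the mouse annotation, and whether its region lies in the shared part was not tested.

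Among the regions with a lower mean in KO, that of Usp32 in exon 32 of 34 had a winscore of 1.54 and 2.94 in KO and 4.58 and 4.89 in WT (difference −2.49, adjusted p = 0.521). With the highest window of the region in place of the mean, this difference was −0.49. Usp19, a deubiquitinase of the endoplasmic reticulum, had 1.66 and 1.48 in KO and 3.26 and 3.74 in WT in its last exon. The last exon of Fbxo30 had 0.917 and 2.03 in KO and 2.98 and 3.97 in WT. The groups did not overlap in any of the 3, which were picked by small p in these same libraries. Fbxl12 carried a region in exon 1 of 4 with 0.537 and 0.877 in KO and 2.19 and 2.91 in WT, and its ratio differed by −2.71. Fbxl12 overlaps Ubl5 in the mouse annotation, and whether this region lies in the shared part was not tested. In the ratio the regions of Usp33 (−1.97), Fbxo8 (−1.45) and the last exon of Usp47 (−1.35) were also lower. The long internal region of Usp47 did not share this: its ratio difference was −0.15.

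Transcript levels differed in 18 of the 86 members tested, 5 of them higher and 13 lower in KO. Levels were mean input coverage per window, tested with limma on log2(coverage + 1), n = 2 per group, with adjustment over all 11211 genes. The 5 higher were 5.81% of the members, beside 13% of all genes, and the 13 lower were 15.1%, beside 13.6%. Usp20, Usp51 and Fbxl2 were under the coverage filter. Usp17le, among the 13, passed the coverage filter only through the WT libraries. The added 1 shrinks the changes of weakly covered genes: on this scale the 18 changes lay between −0.63 and 0.33, and as plain ratios of mean coverage between 0.315 (Usp17le) and 1.47 (Fbxw4). The KO and WT libraries of each did not overlap. The calls came from these same libraries, so this adds no support to them. The median change was −0.0041 over the members and −0.0048 over all genes, with a median SE of 0.071 in the members. By family 6 Usp, 5 Fbxo and 2 Fbxl genes were lower, and 3 Usp, 1 Fbxo and 1 Fbxw gene were higher. With 1 library left out the number of calls varied, among the members and over all genes, and both ranges are given below. In bulk RNA, fewer cells with a transcript and less of it per cell cannot be told apart.

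**Figure D4:**
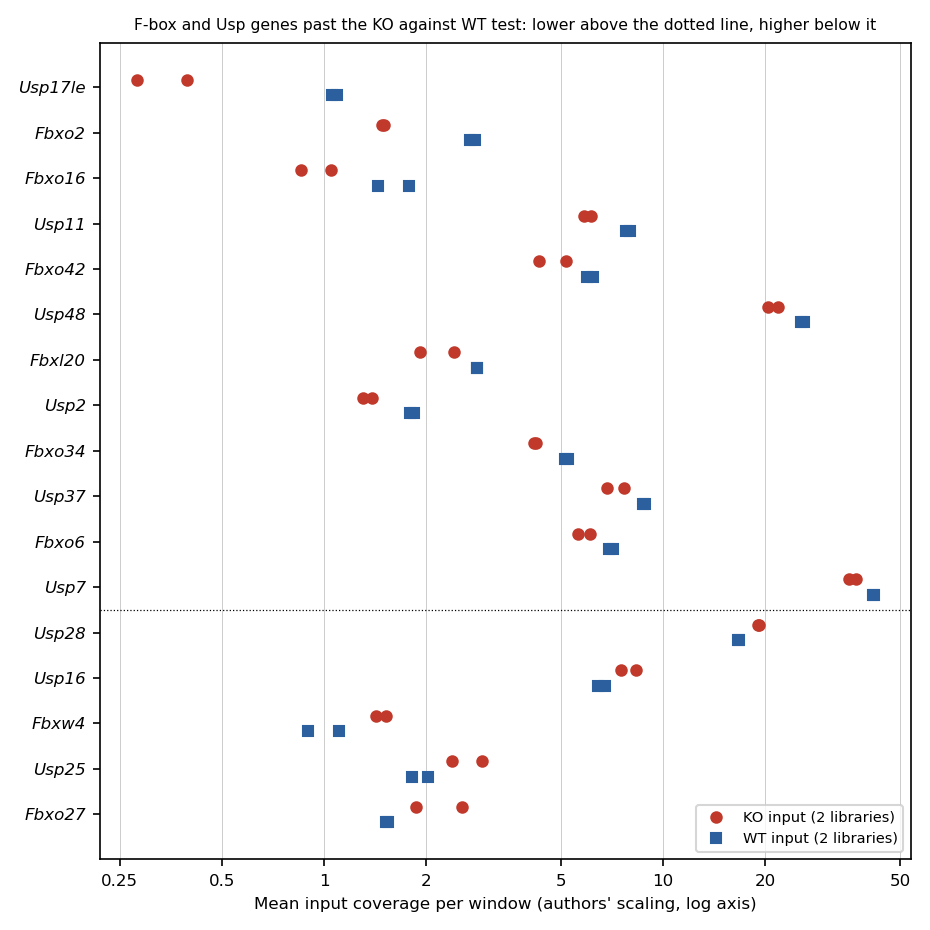
Mean input coverage per window (log axis) of 17 of the 18 F-box and Usp genes past the test, in 2 KO inputs (circles, above) and 2 WT inputs (squares, below), with 12 lower genes above the dotted line and the 5 higher genes under it. KO and WT points do not overlap in any gene, and the genes were picked by a test on these same libraries.

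Fbxo2, described with its relatives, and Usp11 were among the falls that held in every coverage fit that tested them. Usp11, a deubiquitinase of DNA repair on the X chromosome, had 6.11 and 5.84 in KO against 7.79 and 7.98 in WT (−0.35, adjusted p = 0.00512). Of its 21 exons of mean coverage 1 or more, 14 were lower in both KO libraries and 1 was higher. Exon counts here and below come from the same libraries as the calls, so they give no separate support. Usp17le had 0.395 and 0.281 in KO against 1.06 and 1.09 in WT (−0.63, adjusted p = 0.00104). Since it entered the test only through the WT libraries, where it is high, its call supports nothing, and it belongs to a family of near-identical copies, so its value is uncertain.

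Among the other falls, Fbxo42, an F-box protein for p53 in human cells, had 5.19 and 4.30 in KO against 5.96 and 6.23 in WT (−0.31, adjusted p = 0.0253). Usp48 had 21.8 and 20.3 in KO against 25.5 and 26.0 in WT (−0.28), and 23 of its 28 exons were lower. Fbxl20, known for a synaptic substrate in mouse neurons, had 2.42 and 1.92 in KO against 2.83 and 2.83 in WT (−0.28, adjusted p = 0.0464). In Fbxo42 and Fbxl20 the groups lay close to each other. Without KO replicate 2 the change was −0.20 in Fbxo42 and −0.16 in Fbxl20. Usp2, which acts on cyclin D1 in human cells, had 1.30 and 1.39 in KO against 1.79 and 1.84 in WT (−0.27). Fbxo34 had 4.17 and 4.22 in KO against 5.26 and 5.15 in WT (−0.26), and Fbxo16 had 1.05 and 0.858 in KO against 1.44 and 1.78 in WT (−0.42). Usp37, which acts on cyclin A in human cells, fell by 0.25. Usp7, the most abundant member, had 36.9 and 35.3 in KO against 41.5 and 41.8 in WT (−0.20, adjusted p = 0.0401), with 22 of 30 exons lower and 0 higher. None of the falls from Fbxo42 to Usp7 held in every coverage fit that tested it.

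The rises were in Fbxo27, Usp25, Fbxw4, Usp16 and Usp28, and none held in every coverage fit that tested it. Without KO replicate 2 the change was 0.18 in Fbxo27 and 0.21 in Usp25, neither past the test. Usp25 and Usp28 are close relatives, and Usp28 is known to oppose FBXW7 on MYC. Usp25 had 2.39 and 2.93 in KO against 1.82 and 2.02 in WT (0.32, adjusted p = 0.0293), and Usp28 had 19.2 and 19.1 in KO against 16.7 and 16.7 in WT (0.19, adjusted p = 0.048). Of 24 exons of Usp28, 7 were higher and 2 lower. Fbxw7 had 5.69 and 5.31 in KO against 6.16 and 6.29 in WT and did not pass (−0.15, adjusted p = 0.13). Usp16, the H2A deubiquitinase, had 8.34 and 7.49 in KO against 6.41 and 6.73 in WT (0.23, adjusted p = 0.0414), and 6 of its 17 exons were higher and 1 lower. Usp16 overlaps Cct8 and Fbxw4 overlaps Dpcd in the mouse annotation, Usp37 overlaps Cnot9, Plcd4 and Vil1, and whether coverage was kept per strand is not given in the sources used here. Fbxw4 had 1.42 and 1.53 in KO against 0.898 and 1.11 in WT (0.31).

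Fbxo2, Fbxo6, Fbxo17, Fbxo27 and Fbxo44, a family of related F-box genes known for members that bind sugar chains, did not move one way. Fbxo2, whose protein binds high-mannose glycans of glycoproteins, had 1.51 and 1.48 in KO against 2.78 and 2.70 in WT (−0.59, SE 0.076, adjusted p = 0.000661), a plain ratio of 0.545. Its neighbour on chromosome 4, Fbxo6, had 6.09 and 5.61 in KO against 7.10 and 6.93 in WT (−0.23, adjusted p = 0.0383). All 5 exons of Fbxo6 above a coverage of 1 were lower in KO, but its call did not hold in every coverage fit. Fbxo44, which lies between them, had 1.13 and 1.27 in KO against 1.32 and 1.31 in WT and did not pass (−0.076, adjusted p = 0.531). The 3 neighbours thus differed in size of change. Fbxo27 had 1.87 and 2.55 in KO against 1.52 and 1.55 in WT (0.33, adjusted p = 0.041), and Fbxo17 had 2.04 and 1.80 in KO against 1.61 and 2.13 in WT. Fbxo27 alone of the 5 had a region. The 5 genes are related in sequence, so reads that fit more than 1 copy could have been split.

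Members with and without a region were set side by side, since m6A can alter how long a transcript lasts. Of 70 tested members with a region 5 were higher and 7 lower in KO, beside 11% higher and 13.3% lower of all tested genes with a region. Of 16 tested members without one, 0 were higher and 6 were lower, beside 13.9 and 14.3% of all tested genes without a region. The 6 were Fbxo2, Fbxo6, Fbxo16, Usp7, Usp11 and Usp17le. Usp17le entered the test only through the WT libraries, where it is high, so the count of 6 includes a call that supports nothing. The difference between the 2 sets of members was not tested. Among the 15 members with 3 or more regions, Usp48 and Fbxo42 were lower and none passed as higher. Usp1, with the highest gene value, had 23.3 and 23.9 in KO against 25.1 and 26.0 in WT and did not pass (−0.11, SE 0.062, adjusted p = 0.208), and Fbxo5 had 41.1 and 40.2 in KO against 38.6 and 41.6 in WT (0.020, SE 0.066, adjusted p = 0.846).

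The partners of these proteins were taken from 3 lists, whose counts are read against 13% higher and 13.6% lower of all genes tested. Of 28 tested genes of the SCF core and its regulators 3 were higher and 3 lower (10.7% each), with a median change of 0.073. Cdc34, the ubiquitin-conjugating enzyme of SCF ligases (0.30, adjusted p = 0.00842), and the COP9 signalosome subunits Gps1 (0.24) and Cops7b (0.24) were higher. Nedd8, the modifier that activates cullins (−0.35, adjusted p = 0.00898), the exchange factor Cand1 (−0.26) and Ccnf, cyclin F, itself an F-box protein (−0.39, adjusted p = 0.00338), were lower. Of 22 other deubiquitinases 1 was higher (4.55%), Otub1 (0.22), and 6 were lower (27.3%), among them Otud3 (−0.60), Bap1 (−0.32), Uchl1 (−0.30), Atxn3 (−0.24) and Mysm1 (−0.24), with a median of −0.051.

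Of 18 tested textbook SCF substrates 3 were higher (16.7%) and 5 lower (27.8%), with a median of −0.055. These counts of a few genes carry no test of the list. Cry1 and Cry2, repressors of the circadian clock, were both lower: Cry1 had 6.27 and 7.30 in KO against 8.97 and 8.79 in WT (−0.35, adjusted p = 0.0111), and Cry2 had 2.14 and 1.73 in KO against 2.97 and 2.53 in WT (−0.36, adjusted p = 0.0229). The KO and WT libraries did not overlap in either gene, which adds no support to their calls. Mcl1, a survival factor (−0.32), the cell cycle inhibitor Cdkn1a (−0.29) and Nfkbia (−0.25) were also lower, and Atf4 was higher (0.22).

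The deposited RPKM columns labelled KO input could not serve as a second measure of the members. In 72 of the 89 genes these columns lay nearer to the KO IP coverage than to the KO input coverage, while the WT columns lay nearer to the WT IP coverage in 14. Fbxw7 shows it: the columns labelled KO input listed 49.4 and 51.5 RPKM and the WT columns 6.93 and 7.06, where the KO IP coverage was 50.5 and 47.0 and the KO input coverage 5.69 and 5.31. Taken as labelled, the RPKM columns gave 41 members higher and 13 lower, and the counts over all genes are given below. Of the 18 members past the coverage test, 7 kept their call in these columns and 9 had the other direction.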

How the data were processed

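Libraries were grouped by the genotype, title and antibody in the labels. The submitters' processing notes name TopHat 1.1.3 and the build mm9. The column headers of the first pair hold the word unique. For the KO and WT libraries the counting of reads with several positions is not given in the sources used here. The deposited window files hold coverage, a signal scaled by the authors per library, and a log2 winscore, per the file headers; recomputing the log2 score as log2(((IP + 1)/(IP gene median + 1))/((input + 1)/(input gene median + 1))) gave the deposited values. The RPKM values per gene are the authors' deposited table. Low coverage values were whole multiples of 1 step per library (tolerance 0.001), from which relative depth was computed.

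The members and gene lists were chosen with earlier results of these data known. Input coverage was tested in genes at 1 or more in at least 2 of 4 libraries, on log2(coverage + 1), which understates the change of low genes. Region ratios used log2((IP + 1)/(input + 1)) of regions whose input coverage averaged 1 or more, minus the library median over windows outside regions (winscore under 1) of 5971 genes. Tests were limma 3.58.1 (lmFit, eBayes with trend) in R 4.3.3 with Benjamini-Hochberg adjustment over all features at 0.05, tested on simulated data. Files number exons along the chromosome; the RefSeq table of GRCm38.p6 gave the strand of 67 members and 8409 expressed genes and was used for names, order and neighbours only. Fbxo18 is an older name.

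Genes were named by rule: Mettl3, the 10 largest rises and falls past the test without overlap, the 8 highest regions, members with 3 or more regions, the 4 smallest p per direction and region measure, the 5 highest RPKM, the names nearest the limit and up to 6 genes per list. The values of 1 member are not reported here, though counts include it. Other genes named (such as Fbxo6, Fbxw5 and Fbxw9) were chosen after their values were seen. The alternatives were other pseudocounts, coverage filters, quantile normalization, RPKM columns, region thresholds, scalings, a replicate block and leaving out each library. Python 3.11.15, numpy 2.4.6, pandas 2.3.3, scipy 1.17.1 and matplotlib 3.10.9 were used.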

Additional observations from a re-analysis of the deposited data

How the results depend on the processing

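The numbers of the replicates did not pair the samples: deviations of same-numbered KO and WT libraries correlated at −0.027 for input coverage, 0.025 for winscore and 0.011 for the ratio. With a replicate block 3 members were higher and 11 lower, 0 member regions passed, and 65 of all regions passed in winscore. Without a filter on low coverage 0 members were higher and 4 lower (372 and 390 of all genes), and at a coverage of at least 5 the members were 3 and 8, and 930 of all genes were lower. Of the 18 members past the test 10 were tested there and all 10 passed. With 1 library left out, 0 to 5 members were higher and 4 to 16 lower (759 to 1455 and 822 to 1689 of all genes). Then 0 to 18 member regions passed in winscore and 0 to 28 in the ratio (0 to 1321 and 0 to 2318 of all regions), and the lone library was assumed to vary like the other group. The share of members with a region was 95.5% at a winscore of 1, 59.6% at 3 and 87.3% at a WT RPKM of at least 5. Of all genes it was 79.3, 35.9 and 51.2% there, 46.8% with 3 consecutive windows and 50.5% with a winscore of 2 in both WT IPs.

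The RPKM columns as labelled gave 41 members higher (5011 and 2954 of all genes higher and lower). There the log2 change turned to 0.85 in Fbxo42, 0.69 in Usp48, 1.03 in Usp2, 2.22 in Fbxo34, −0.62 in Usp28, −0.20 in Fbxw4 and −0.066 in Fbxo27. In 72 of the 89 members the KO columns lay nearer to IP than to input coverage.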

Other observations

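The members below were picked after their values were seen, and none passed the test. Usp44 had an input coverage of 2.82 and 3.06 in KO against 2.34 and 2.50 in WT (log2 change 0.21, limma adjusted p = 0.0763), and Usp3 had 5.46 and 5.64 in KO against 4.92 and 4.96 in WT (0.14, adjusted p = 0.152). In both genes the KO values were above the WT values. Usp22 had 20.5 and 17.4 in KO against 19.5 and 19.4 in WT (−0.037, adjusted p = 0.763), and the groups overlapped. The region in the last exon of Usp3 had a winscore of 3.37 and 4.87 in KO and 4.48 and 5.09 in WT.

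Fbxl4 had an input coverage of 3.51 and 3.94 in KO against 3.18 and 3.05 in WT (0.20, adjusted p = 0.0842). Usp30, a deubiquitinase of the outer mitochondrial membrane, had 1.90 and 1.85 in KO against 1.59 and 1.99 in WT (0.045, adjusted p = 0.745). Fbxo7, a gene of mitophagy, had 4.69 and 5.12 in KO against 4.85 and 4.48 in WT (0.061, adjusted p = 0.584). Of the 8 Fbxw genes 7 did not pass. Fbxw11, which encodes a beta-TrCP protein that binds beta-catenin and IkB, had 10.4 and 9.95 in KO against 9.69 and 10.4 in WT (0.019, adjusted p = 0.864).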
